A study of Rattus norvegicus with 3 samples.

Results

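The genes described here encode the Pak kinases Pak1, Pak2, Pak3 and Pak4, the LIM kinases Limk1 and Limk2, the cofilins Cfl1 and Cfl2 and the slingshot phosphatases Ssh1 and Ssh2. They were taken by name from the deposited expression table, ignoring case. The 10 genes matched 11 of its 26353 entries, because the symbol of Pak2 stood on 2 entries (ENSRNOG00000001747, used here, and ENSRNOG00000048597, listed at 0 in each library). The table holds 3 libraries of polyadenylated RNA from rat spinal cord neurons of the commissural type, which send their axons across the ventral midline. The embryos were at embryonic day 13, the cells were grown for 2 days in culture, and the labels name no treatment, genotype or strain. With a single group there was no condition to compare, so each gene was set against others inside the same library. Libraries are numbered 1 to 3 as in the labels. Whether separate cultures or animals gave rise to them is not stated in the labels, so p-values measure only a spread that may be technical.

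As background, Rac and Cdc42 are small GTPases that switch on Pak kinases. Dock proteins, the subject of the series' title, load these GTPases with GTP. Pak kinases phosphorylate and activate LIM kinases. A LIM kinase in turn phosphorylates cofilin near its amino end, which stops cofilin from binding and severing actin filaments. Slingshot phosphatases remove that phosphate and return cofilin to activity. In a growth cone this cycle sets how fast actin turns over. RNA levels show neither the amount of protein nor its phosphorylation.

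The deposited unit is FPKM, normalised for transcript length and for mapped fragments, so levels of different genes can be set beside each other per length. The depth of a library is not known from FPKM. Summed FPKM was 19897900 to 26236600 per library, most of it in entries above 10000 FPKM, and 430187 to 477484 without those. Against 63.7% of all entries tested, all 4 neuronal, 4 commissural axon, 4 progenitor and 4 proliferation markers lay above 1 FPKM, as did 2 of 4 microglia and macrophage, 1 of 3 erythroid and 1 of 3 fibroblast markers, shares below that of all entries. For the 3 endothelial and 4 skeletal muscle markers, limma called 0 above 1 FPKM, and the count at an unadjusted p under 0.05 was also 0. Since whole cultures were extracted, a value cannot be assigned to a cell type, and fewer cells of a type cannot be told apart from less RNA per cell. Genes of very long transcripts were at their lowest in library 2 in 14 of 14 cases, with a median log2 deviation of -0.87 from the mean of libraries 1 and 3, while the median of 8695 entries with a mean of at least 5 FPKM was 0.14.

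All 10 genes exceeded 1 FPKM (limma, one-sided, Benjamini-Hochberg adjusted over all 17611 entries above 0 in at least 1 library). Of all these entries 63.7% did. An alternative rescaled each library to a sum of 1000000 over all entries, which multiplies FPKM by 0.038 to 0.050. The median of all entries then shifted by -3.99 (log2). Against a level of 1 on that scale, higher than 1 FPKM as deposited, 4 of the 10 passed (Cfl1, Cfl2, Pak1 and Limk1). The share of all entries that passed under that rescaling is not given here. The median level over the 10 genes was 25.0 FPKM, against 4.81 FPKM over all entries tested. Their levels ran from Cfl1 over Cfl2, Pak1, Limk1, Pak3, Limk2, Ssh2, Pak4 and Ssh1 down to Pak2. Neighbours in this order did not overlap between libraries, apart from Pak4 and Ssh1. Pak4 was above Ssh1 in 2 of 3 libraries, and in library 3 they stood at 7.11 and 7.12 FPKM.

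**Figure D1:**
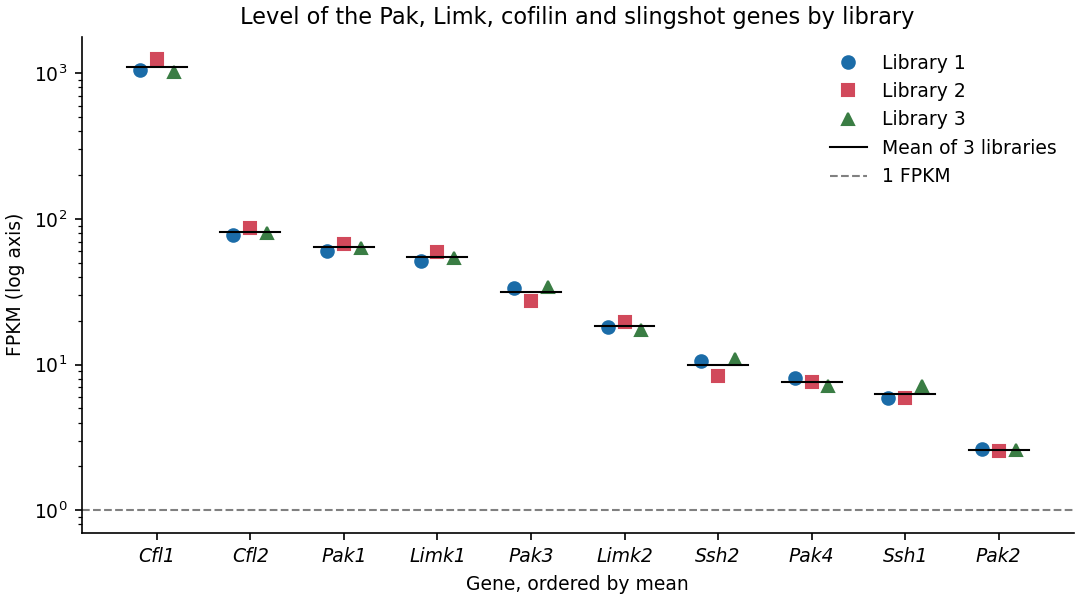
FPKM of each of the 10 genes (log axis) in libraries 1, 2 and 3, with the mean as a black line and 1 FPKM as a dashed line. Cfl1 lies above 1000 FPKM in each library, far above the other 9 genes, and Pak2 is lowest, at 2.55 to 2.65 FPKM.

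Pak kinases fall into group 1 (Pak1, Pak2 and Pak3), which the binding of Rac or Cdc42 frees from autoinhibition, and group 2 (Pak4, Pak5 and Pak6). Pak1 (ENSRNOG00000029784), the founding group 1 kinase, had 60.42, 67.64 and 63.43 FPKM in libraries 1, 2 and 3, a mean of 63.8 ± 3.63 (SD, n = 3). Of the entries tested, 93.1% lay below it. Pak3 (ENSRNOG00000004676), a group 1 kinase known mainly from neurons, had 33.83, 27.21 and 34.21 FPKM (31.8 ± 3.94). Library 2 was low for Pak3 and high for Pak1, but the pair did not overlap. Pak2, the broadly expressed group 1 kinase, had 2.65, 2.55 and 2.60 FPKM (2.60 ± 0.050) and hardly varied. Both entries with its symbol are described as PAK 2-like, and the other one was at 0 in each library. How reads matching both entries, if any, were counted is unknown. The low value of Pak2, and the folds and shares built on it, are uncertain to that extent. Pak4 (ENSRNOG00000019883), the broadly expressed kinase of group 2, had 8.10, 7.56 and 7.11 FPKM (7.59 ± 0.496).

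Within libraries, Pak1 exceeded Pak3 by 2.02-fold (95% interval 1.69 to 2.40), Pak4 by 8.32-fold (7.29 to 9.49) and Pak2 by 23.7-fold (20.1 to 27.9), each in 3 of 3 libraries. Folds and intervals are on the log2(FPKM + 0.1) scale, which understates those of low genes, and cover the spread between libraries but no error of length or mapping that all libraries share. Pak3 exceeded Pak4 by 4.13-fold (3.24 to 5.25) and Pak2 by 11.7-fold (10.2 to 13.4). Even the lower members were apart, with Pak4 above Pak2 by 2.84-fold (2.50 to 3.24). All 6 Pak pairs passed limma's two-sided test with Benjamini-Hochberg adjustment over all entries set against the same reference gene. That carries little by itself, since 98.1% of all entries differed from Pak1, 94.5% from Pak2 and 91.5% from Pak3. All 6 pairs also passed against a margin of 1.5-fold, as did 91.8% of all entries against Pak1, 86.3% against Pak2 and 80.5% against Pak3.

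Of the summed FPKM of Pak1 to Pak4, which stood at 105.00, 104.96 and 107.35 FPKM, Pak1 made up 60.4% ± 3.62 (SD, n = 3), Pak3 30.0% ± 3.54, Pak4 7.18% ± 0.546 and Pak2 2.46% ± 0.0567. The sum varied less than its main parts, since Pak1 was highest and Pak3 lowest in library 2. The remaining group 2 genes were present too. Pak5, a kinase known mainly from brain and listed under its older symbol Pak7, had 22.0 ± 1.60 FPKM, and Pak6 had 7.33 ± 1.27. Over all 6 Pak genes, group 1 made up 72.7% ± 1.22 and Pak5 16.3% ± 1.12, so Pak5 held the largest share among the group 2 kinases in each of the 3 libraries.

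The RefSeq sequence table (build GRCr8) holds the promoter of each of the 10 genes, used here as the 250 bases before the gene's start. The bases that flank the highest and the lowest Pak gene are shown 5′ to 3′ on the gene's strand, with matches to a GC box (GGGCGG) or a CCAAT box (CCAAT), on either strand, in capitals. Pak1 lies at chr1:161522200-161522449 on the plus strand and Pak2 at chr11:82212685-82212934 on the plus strand.
Pak1: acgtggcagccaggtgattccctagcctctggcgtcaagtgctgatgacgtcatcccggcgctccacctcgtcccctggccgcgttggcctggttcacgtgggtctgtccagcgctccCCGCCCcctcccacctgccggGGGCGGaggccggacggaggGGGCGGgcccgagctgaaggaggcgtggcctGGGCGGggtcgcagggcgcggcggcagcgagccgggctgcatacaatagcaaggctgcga
Pak2: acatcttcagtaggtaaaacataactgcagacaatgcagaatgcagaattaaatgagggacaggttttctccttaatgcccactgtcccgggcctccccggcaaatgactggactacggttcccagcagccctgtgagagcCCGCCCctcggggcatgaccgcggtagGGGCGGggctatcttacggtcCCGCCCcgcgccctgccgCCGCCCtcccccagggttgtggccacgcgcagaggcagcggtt
Each of these windows holds 4 GC boxes and 0 CCAAT boxes, with a GC content of 72.4% for Pak1 and 62.0% for Pak2, so the count of these boxes does not separate the highest from the lowest Pak gene. Over all 10 genes, 9 windows held a GC box, 4 a CCAAT box, 0 a TATA box (TATAAA) and 0 a CArG box, both strands searched. Among the 33469 RefSeq windows of the same length the shares were 30.5%, 34.0%, 12.9% and 1.5%. The window without a GC box was that of Pak3, which also had the lowest GC content of the 10, at 51.2%, against a median of 66.4% over the 10 and 51.2% over all windows. Such matches are letters in a sequence and not shown to be sites of binding.

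LIM kinases are the step between Pak and cofilin. Limk1 (ENSRNOG00000001470), the LIM kinase best known from neurons and growth cones, had 51.24, 59.27 and 53.60 FPKM (54.7 ± 4.13). Limk2 (ENSRNOG00000019000), its more broadly expressed relative, had 18.09, 19.70 and 17.23 FPKM (18.3 ± 1.25). Both were highest in library 2, and they did not overlap. Limk1 exceeded Limk2 by 2.97-fold (95% interval 2.71 to 3.26, limma, in 3 of 3 libraries), and 97.7% of all entries differed from Limk1. The share of Limk1 in the pair's sum was 73.9%, 75.1% and 75.7%, a narrow range, with a mean of 74.9% ± 0.896.

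Cofilins bind and sever actin filaments. Cfl1 (ENSRNOG00000020660), the non-muscle cofilin, had 1055.20, 1248.53 and 1018.09 FPKM (1107 ± 124). It stood above 99.5% of entries, and library 2 was the highest. Cfl2 (ENSRNOG00000045892), named for its prominence in muscle, had 77.13, 86.79 and 80.39 FPKM (81.4 ± 4.91) and was thus the second highest of the 10 genes. The skeletal muscle markers Myog, Myod1, Acta1 and Ckm summed to 0.54, 0.44 and 0.62 FPKM in the same libraries, and Myog was listed at 0 in each. Cfl1 exceeded Cfl2 by 13.5-fold (12.5 to 14.7, limma, in 3 of 3 libraries, and 11.3 to 16.3 with the 2 genes' own variances summed), and 99.5% of all entries differed from Cfl1 (99.3% with the 1.5-fold margin). Only 0.261% of entries lay above Cfl1 in that test.

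Destrin (Dstn, also called ADF), which severs filaments like cofilin and is under the same phosphorylation, had 182.77, 201.81 and 175.56 FPKM (187 ± 13.6). Cfl1 exceeded it by 5.91-fold (5.54 to 6.32) and it exceeded Cfl2 by 2.29-fold (2.13 to 2.46), where 99.2% of all entries differed from Dstn (97.4% with the 1.5-fold margin). Cfl1 made up 80.5% ± 0.684 of the sum of the 3 genes, Dstn 13.6% ± 0.414 and Cfl2 5.94% ± 0.338. The table describes its Cfl1 entry as similar to cofilin-1 and its Dstn entry as destrin-like 1. RefSeq's GRCr8 annotation names 11 pseudogenes of Cfl1, 2 of Cfl2, 1 of Pak1 and 1 of Limk2, and how the authors treated reads that also match such copies is not given in the sources used here, so single values of these genes are uncertain to that extent.

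**Figure D2:**
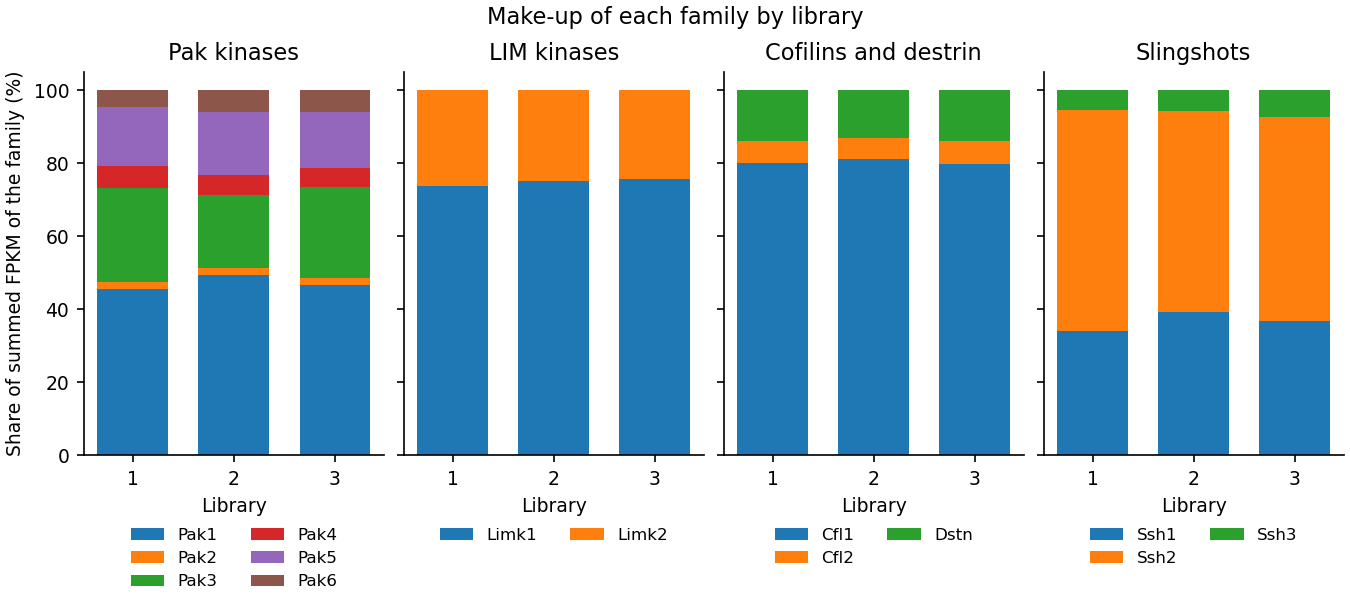
Share of each gene in the summed FPKM of its family (%, stacked bars) in libraries 1, 2 and 3, for the 6 Pak genes, the LIM kinases, the cofilins with destrin and the 3 slingshot genes. Pak1, Limk1, Cfl1 and Ssh2 hold the largest share of their family in each library, and the share of Pak3 is smallest in library 2, at 19.9%.

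The promoter windows of the 2 cofilin genes, 13.5-fold apart in level, are shown in the same way. Cfl1 lies at chr1:212226874-212227123 on the plus strand and Cfl2 at chr6:78094889-78095138 on the minus strand of GRCr8.
Cfl1: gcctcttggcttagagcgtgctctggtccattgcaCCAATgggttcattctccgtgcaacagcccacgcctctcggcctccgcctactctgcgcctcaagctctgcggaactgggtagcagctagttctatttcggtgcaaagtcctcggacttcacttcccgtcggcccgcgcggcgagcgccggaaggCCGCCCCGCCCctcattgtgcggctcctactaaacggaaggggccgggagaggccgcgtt
Cfl2: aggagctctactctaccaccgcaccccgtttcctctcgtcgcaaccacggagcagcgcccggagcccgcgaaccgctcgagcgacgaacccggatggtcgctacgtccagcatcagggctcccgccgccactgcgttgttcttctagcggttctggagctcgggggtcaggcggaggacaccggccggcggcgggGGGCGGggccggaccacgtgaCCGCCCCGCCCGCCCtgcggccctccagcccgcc
The window of Cfl1 holds 2 overlapping GC boxes and 1 CCAAT box, and that of Cfl2 holds 4 GC boxes, some of them overlapping, and 0 CCAAT boxes. GC content was 64.0% for Cfl1 and 73.2% for Cfl2. The lower gene of the pair thus had more GC boxes and the richer GC content in this window.

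Slingshot phosphatases reactivate cofilin. Ssh2 (ENSRNOG00000014285) had 10.56, 8.37 and 10.85 FPKM (9.93 ± 1.36), and Ssh1 (ENSRNOG00000000695), the slingshot most studied in the control of cofilin, had 5.93, 5.93 and 7.12 FPKM (6.33 ± 0.687). Ssh2 was low in library 2, and Ssh1 was high in library 3. Ssh2 exceeded Ssh1 by 1.56-fold in 3 of 3 libraries (95% interval 1.28 to 1.90, adjusted p = 1.60e-05 in limma with Benjamini-Hochberg adjustment), where 92.1% of all entries differed from Ssh1. This was the closest of the 15 pairs compared, and it was lost against a margin of 1.5-fold (adjusted p = 0.426 in limma with Benjamini-Hochberg adjustment), which 79.4% of all entries passed. Its call came near the threshold without library 1 (limma adjusted p = 0.0450) and without library 3 (limma adjusted p = 0.0335). Ssh3, the third slingshot gene, had 1.06 ± 0.288 FPKM and was not called above 1 FPKM (adjusted p = 0.590 in the same limma fit over all entries).

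RNA of the kinases that inactivate cofilin was set against RNA of the slingshots that reactivate it. Limk1 exceeded Ssh1 by 8.54-fold (7.27 to 10.0) and Ssh2 by 5.49-fold (4.47 to 6.75). Limk2 exceeded Ssh1 by 2.88-fold (2.41 to 3.43) and Ssh2 by 1.85-fold (1.52 to 2.25), where 94.6% of all entries differed from Limk2. All 4 pairs had the same direction in 3 of 3 libraries and passed limma's test, also against the 1.5-fold margin, which 90.4% of entries passed against Limk1 and 79.8% against Limk2. The summed FPKM of Limk1 and Limk2 was 4.20, 5.52 and 3.94 times that of Ssh1 and Ssh2 in libraries 1, 2 and 3 (4.56 ± 0.847). Library 2 was thus the high value. Its log2 deviation from the mean of libraries 1 and 3 was 0.18 for Limk1 and 0.16 for Limk2. These lay near the median of 0.14 over all entries with a mean of at least 5 FPKM. Ssh1 and Ssh2 lay below that median, at -0.13 and -0.35.

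That ratio depends on which enzymes are counted. Pdxp (chronophin), a cofilin phosphatase outside the slingshot family, had 29.6 ± 3.35 FPKM, more than Ssh1 and Ssh2 together (16.3 ± 1.85), with no overlap between libraries. Tesk1, another kinase that phosphorylates cofilin, had 18.7 ± 0.647 FPKM, a level near that of Limk2, and its relative Tesk2 had 0.907 ± 0.0777. With Tesk1, Tesk2, Ssh3 and Pdxp added, the ratio of cofilin kinases to cofilin phosphatases was 1.97, 2.04 and 1.91 (1.97 ± 0.0663). The wider ratio was lower and varied less between libraries than that of LIM kinases to slingshots. Of these added genes, Tesk1 and Pdxp lay above 1 FPKM, and Tesk2 and Ssh3 did not pass. The summed FPKM of cofilins and destrin was 18.8 ± 0.752 times that of the LIM kinases.

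**Figure D3:**
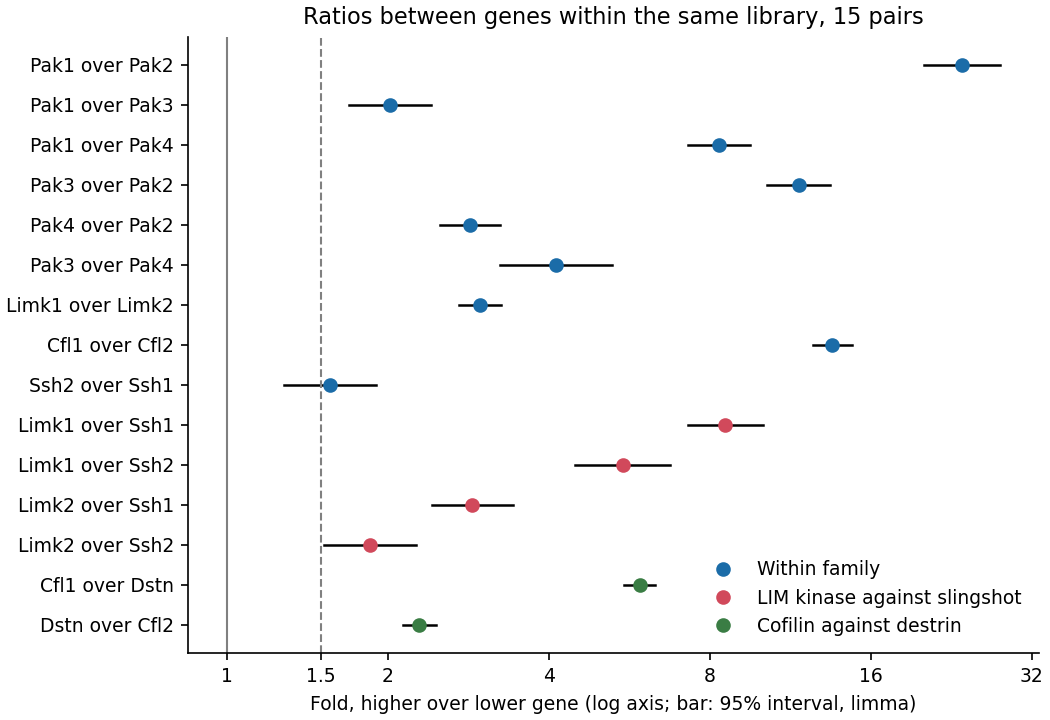
Fold of the higher over the lower gene within the same library for 15 pairs (log axis), with dots for limma's estimate, bars for its 95% interval, a solid line at 1 and a dashed line at 1.5. Every interval lies above 1, from 1.56-fold for Ssh2 over Ssh1 to 23.7-fold for Pak1 over Pak2.

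All 15 pairs passed limma's test, with the largest Benjamini-Hochberg adjusted p at 3.25e-04 for Limk2 and Ssh2. In that fit every entry shares the reference gene's deviations, so its p-values can be too small and its intervals too narrow. With the 2 genes' own variances summed instead, an alternative chosen after seeing the data, all 15 passed as well, with the largest limma-based adjusted p at 1.45e-04 for Ssh1 and Ssh2. Summing leaves out the pairing within libraries, so p-values can be too small for genes that moved oppositely, such as Pak1 and Pak3. With this alternative the intervals widened for the pairs with a cofilin and for Limk1 over Limk2. They became 4.90 to 7.14 for Cfl1 over Dstn, 1.95 to 2.68 for Dstn over Cfl2 and 2.56 to 3.44 for Limk1 over Limk2. The intervals also widened for every pair with Pak2, for Pak1 over Pak4 and slightly for Limk1 over Ssh1. For the remaining pairs they narrowed, as to 3.49 to 4.87 for Pak3 over Pak4 and 4.63 to 6.51 for Limk1 over Ssh2. The alternative was thus not stricter for every pair. The pairs share genes and are not independent.

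The 10 genes did not move together between libraries. Cfl1, Cfl2, Pak1, Limk1 and Limk2 were highest in library 2, Pak3, Ssh1 and Ssh2 in library 3, and Pak2 and Pak4 in library 1. The log2 deviation of library 2 from the mean of libraries 1 and 3 was 0.27 for Cfl1, 0.18 for Limk1, 0.16 for Limk2, 0.14 for Cfl2 and 0.13 for Pak1, against a median of 0.14 over all entries with a mean of at least 5 FPKM. Pak3 and Ssh2 went the other way, at -0.32 and -0.35. Only 5.20% of those entries lay lower than Pak3 and 4.58% lower than Ssh2. Ssh1 deviated by -0.13, Pak2 by -0.04 and Pak4 by -0.01. The genes with very long transcripts moved in the same direction as Pak3 and Ssh2 but further, and 3 of 4 commissural axon markers were also at their lowest in library 2, where 19.95% of all entries with a mean of at least 5 FPKM were. All 4 progenitor markers were at their highest there, with a median log2 deviation of 0.24, against 0.14 over all those entries. Their deviations ran from 0.05 to 0.45 (Fabp7), so the lowest of them lay below that median. The neuronal markers ran from -0.03 to 0.23, with a median of 0.08. The proliferation markers ran from -0.27 to 0.26, with a median of 0.11. Both of these list medians lay below that of all those entries. The share of all entries that were highest in library 2 is not given here. The part of transcript length or of cell make-up in the values of Pak3 and Ssh2 was not tested. Without library 2, the calls of all 15 pairs and of all 10 genes against 1 FPKM stayed the same. Unchanged pair calls carry little, since with all libraries 91.5% to 99.5% of all entries were called against a reference gene.

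**Figure D4:**
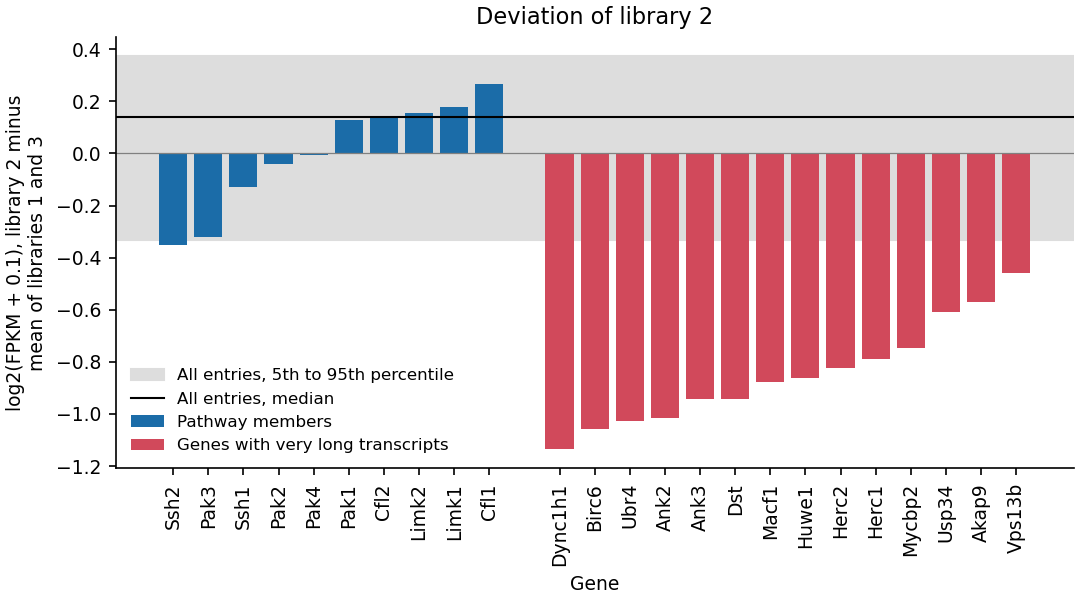
log2(FPKM + 0.1) in library 2 minus the mean of libraries 1 and 3 for the 10 genes (blue) and 14 genes with very long transcripts (red), with the 5th to 95th percentile (grey) and the median (black line) of 8695 entries. Ssh2 and Pak3 are the lowest of the 10, at -0.35 and -0.32, near the lower edge of the grey band, and all 14 long genes lie below it.

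Spread between libraries was ordinary for most of the genes. The coefficient of variation ran from 1.92% for Pak2 to 13.7% for Ssh2, with 12.4% for Pak3, 11.2% for Cfl1 and 10.9% for Ssh1. Over the entries with a mean of at least 5 FPKM its median was 8.44% and its 90th percentile 16.2%, so none of the 10 exceeded that percentile. Pak2, with a mean of 2.60 FPKM, is not itself among those entries.

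The genes around the pathway were taken from 8 lists. Of 45 listed genes, 44 were matched, with a median of 19.8 FPKM. By the same limma criterion 38 of the 44 (86.4%) exceeded 1 FPKM, against 63.7% of all entries tested. The counts per list below rest on few genes and were not tested against that share. With libraries rescaled to a sum of 1000000 over all entries, 15 of the 44 exceeded 1 on that scale, a higher level than 1 FPKM as deposited. The share of all entries that did so under that rescaling is not given here. Upstream, 6 of 7 GTPases that bind Pak kinases passed. Cdc42 had 283 ± 27.5 and Rac1 133 ± 14.5 FPKM, each above every Pak gene in each library, while Rhoj at 1.29 ± 0.328 missed the threshold (adjusted p = 0.0682 in limma). It passed when only entries with a mean of at least 1 FPKM were tested (limma adjusted p = 0.0399). Of the scaffolds and adaptors that bring Pak kinases to the membrane, 5 of 6 passed, led by the exchange factor Arhgef7 (beta-PIX) at 46.7 ± 0.815 and its partner Git1 at 41.8 ± 1.98 FPKM. Arhgef6 (alpha-PIX), the relative of Arhgef7, had 0.903 ± 0.156.

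Inhibitors of the kinases were present as well. All 7 genes of the list of Pak and LIM kinase brakes passed the test against 1 FPKM, as did 63.7% of all entries. Nisch (nischarin, which binds and inhibits Pak1 and LIM kinase) had 99.4 ± 3.15 FPKM, above Pak1 in each library. Nf2 (merlin, an inhibitor of Pak1) had 28.9 ± 1.68 FPKM, and Rnf6, a ubiquitin ligase that acts on Limk1, had 4.79 ± 0.515.

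Regulators of slingshots and partners of cofilin completed the set. All 6 slingshot regulators passed, where 63.7% of all entries did. The calcineurin subunits Ppp3r1 and Ppp3cb, part of the phosphatase that activates slingshot, had 87.0 ± 5.38 and 62.6 ± 4.75 FPKM. Prkd1, a protein kinase D gene, had 1.31 ± 0.186 and its call was lost without library 1 (limma adjusted p = 0.112) and without library 2 (limma adjusted p = 0.0890). Of 12 cofilin relatives and cofactors of actin turnover, 10 passed. Behind Dstn stood Coro1c, a coronin, at 97.4 ± 3.87 FPKM. Cap2, a cyclase-associated protein, was lowest at 0.157 ± 0.0513, and Cttn (cortactin) had 0.893 ± 0.0651 on the higher of its 2 entries.

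**Figure D5:**
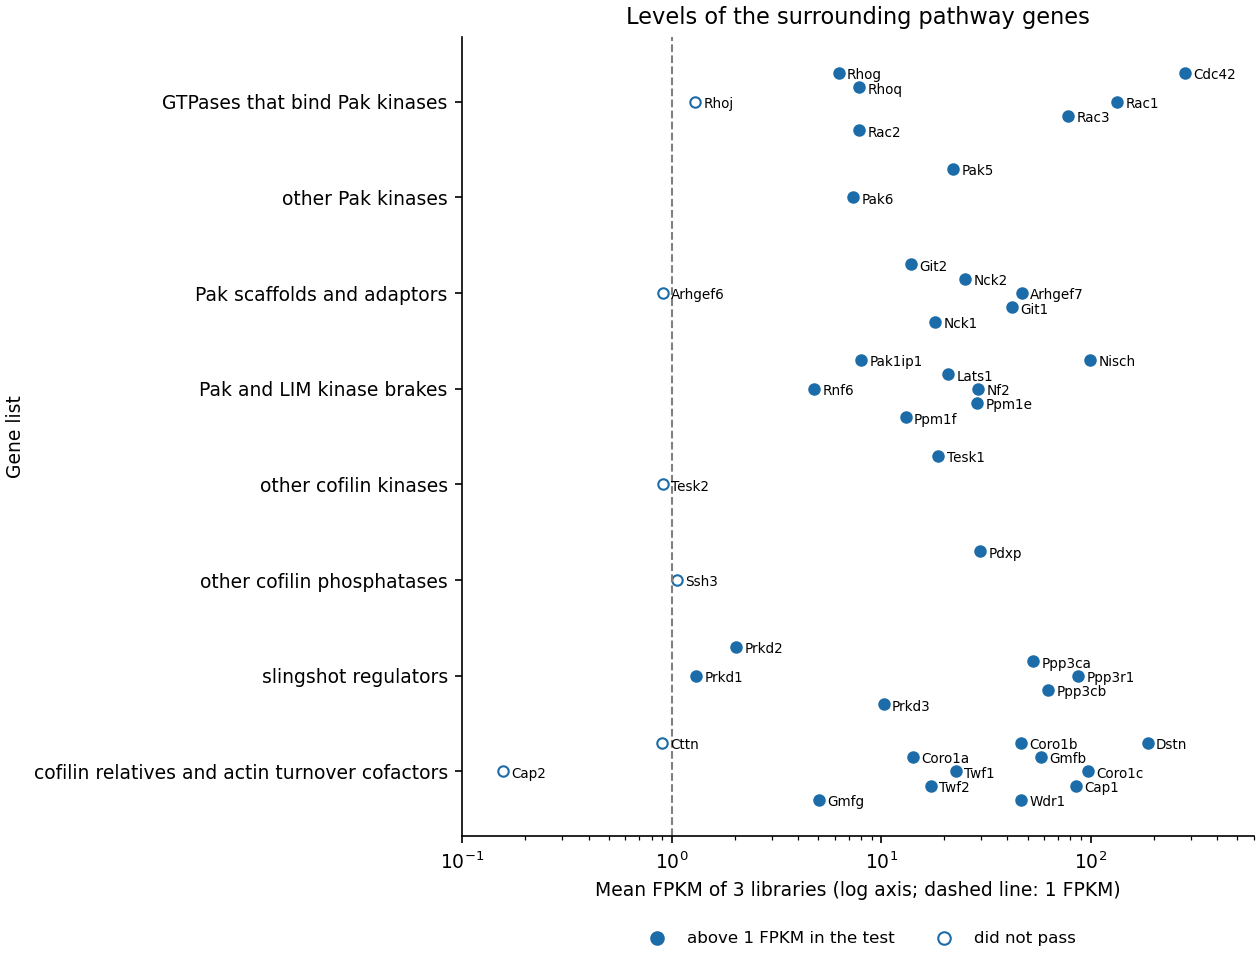
Mean FPKM over 3 libraries (log axis) of the 44 matched genes around the pathway, by list, with filled dots for genes above 1 FPKM in limma's test, open dots for the 6 that did not pass and a dashed line at 1 FPKM. Cdc42 is the highest of these genes, at 283 FPKM, and Cap2 the lowest.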

How the data were processed

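Per the submitters' processing notes, reads were handled with FastQC, Trimmomatic 0.22 and STAR, with build rn6. The reads were paired, of 50 bp, from a stranded kit for polyadenylated RNA, per the labels' protocols. The authors deposited 1 table of FPKM values. Which tool made them, with which annotation and strand setting, and how multiply mapped reads were counted, is not given in the sources used here.

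No rescaling was applied, and log2(FPKM + 0.1) was analysed with R 4.3.3, limma 3.58.1 and statmod 1.5.0. Each of the 17611 entries above 0 in at least 1 library had a one-sided test against 1 FPKM. For 15 pairs the log2 ratio of every entry to the reference gene was tested, two-sided. Both used a robust prior with trend, Benjamini-Hochberg adjustment and a threshold of 0.05. With 3 libraries an exact test could not pass that threshold. In simulated data, genes at 1.5 times 1 FPKM were called in 50 of 50 cases and genes at exactly 1 FPKM in 0 of 50. Simulated pairs without a difference were called in 81 of 1000 cases, more than the threshold allows, and in 56 of 1000 with the 2 genes' own variances summed. Pairs with a ratio of 1.2 were called in 769 of 1000 and with 1.5 in 1000 of 1000. The simulated reference genes were all of a similar middle level, and noise was independent between genes, without the shift of library 2. References far lower or higher, such as Pak2, Cfl1 and Dstn, were thus not covered.

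The genes, lists, pairs and naming rule were chosen with earlier results of these data known. The rule names all 10 genes, the genes of pairs, and the 2 highest and the lowest of each list around the pathway (all of short lists). Pak3's promoter and Cttn were singled out after their values were seen. Rhou matched no entry, and 1 list of genes around the pathway is not reported here. Likeness of patterns across samples was not computed with 3 libraries. Percentages of entries below a gene refer to means over the 17611 entries. Identical values between libraries were 0.219% to 0.483% of 8695 entries, so no library was a copy of another. That does not show that they came from separate cultures. Pearson r of the log2 values over these entries was 0.729 to 0.792 between libraries. Over the same entries the coefficient of variation had a median of 8.44% and a 90th percentile of 16.2%. Which entries lowered r was not tested. Figures were drawn with matplotlib 3.10.9 in Python 3.11.15.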

Additional observations from a re-analysis of the deposited data

How the results depend on the processing

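The 15 pair calls kept their direction under every alternative run (other pseudocounts, filters and variance priors, a margin of 1.5-fold, each library left out, variances of the 2 genes summed), and the only call lost was that of Ssh2 over Ssh1 with the 1.5-fold margin (log2 ratio 0.64). That pair was also near the threshold without library 1 (limma adjusted p = 0.0450) and without library 3 (limma adjusted p = 0.0335). Each library was also rescaled to a sum of 1000000 over all entries, most of which unnamed features hold. The median of all entries then shifted by -3.99 (log2). On that scale 4 of the 10 genes and 15 of the genes around the pathway lay above 1, a higher level than 1 FPKM as deposited. There the log2 distance from that level turned to -2.38 for Pak2, -1.38 for Pak4, -0.32 for Limk2, -1.58 for Ssh1 and -1.08 for Ssh2, and Pak3 no longer passed. Scaled to 1000000 over entries with a gene symbol (shift -0.86), 10 and 36 passed. Against 5 FPKM, Pak2 turned to -0.92 and 9 and 34 passed. Leaving out a library gave 10 of the 10 genes and 37 to 38 of the 44. The share of all entries above the level is not given for these alternatives, so the counts describe these genes only. No paired analysis was possible because the series has 1 group. FPKM leaves the depth unknown, so what counting error limits could not be computed.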
